A study of Mus musculus with 12 samples.

Results

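The Ly6 genes described here are 7 genes of the mouse lymphocyte antigen 6 family, Ly6a (stem cell antigen 1, Sca-1), Ly6c1, Ly6c2, Ly6d, Ly6e, Ly6i and Ly6k, out of 23937 genes in the table. They were taken by name and were chosen by their CPM values and group differences in these same libraries, so those are given as a description and not as a test. All 7 passed the filter on low values, which kept 22352 genes. Transcripts were measured by RNA sequencing of cells sorted as CD8 T cells from mice, with 3 libraries in each of 4 groups: blood of naive mice, brain of naive mice, brain 3 days after stroke and brain 30 days after stroke. The labels give the tissue as blood or brain, while the protocol attached to the same libraries speaks of spleens. Strain, genotype, age, sex, the stroke model, the sort markers other than the CD8 T cell name, and whether libraries of a group came from separate mice were stated by neither the labels nor the table, so the errors below measure the spread between libraries, which may be technical. The libraries allow stroke brain at both times to be compared with naive brain, and each brain group with blood.

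Ly6 proteins are small, cysteine-rich surface proteins that fold into a 3-finger shape and are held in the outer membrane leaflet by a glycosylphosphatidylinositol (GPI) lipid anchor. In mice, Sca-1 marks blood stem cells and rises on activated and memory T cells, and the Ly6C antigen, encoded by Ly6c1 and Ly6c2, is used to mark monocytes and memory CD8 T cells. Several family members are induced by interferons.

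The 7 genes lie in 1 cluster on chromosome 15 of the mouse genome (GRCm38, GENCODE vM21), within 349.9 kb from 74762056 to 75111970. Ly6a lay at chr15:74994877-74998031, Ly6i at chr15:74979534-74983430, Ly6c1 at chr15:75044018-75048830 and Ly6c2 at chr15:75108158-75111970, all on the minus strand. Ly6e lay on the plus strand at chr15:74955051-74959905, and Ly6d (chr15:74762056-74763620) and Ly6k (chr15:74796874-74799986) on the minus strand. Ly6c1 and Ly6c2 are close copies, with 97.7% identity over 393 coding bases and 9 mismatches. Ly6a had 86.3% coding identity with Ly6i and 81.6% with Ly6c2, and Ly6d, Ly6e and Ly6k had 46.5 to 53.5% with the other members. The first 150 coding bases of 4 of the genes are shown because they show how far reads of one gene resemble those of another. Capitals mark bases that differ from Ly6c2, of which there were 6 in Ly6c1, 16 in Ly6a and 20 in Ly6i.
Ly6c2: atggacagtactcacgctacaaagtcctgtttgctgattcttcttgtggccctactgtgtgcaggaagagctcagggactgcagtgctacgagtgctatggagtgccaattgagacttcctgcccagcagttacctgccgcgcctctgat
Ly6c1: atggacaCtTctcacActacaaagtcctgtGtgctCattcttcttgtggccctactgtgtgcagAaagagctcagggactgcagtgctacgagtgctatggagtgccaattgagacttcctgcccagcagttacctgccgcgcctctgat
Ly6a: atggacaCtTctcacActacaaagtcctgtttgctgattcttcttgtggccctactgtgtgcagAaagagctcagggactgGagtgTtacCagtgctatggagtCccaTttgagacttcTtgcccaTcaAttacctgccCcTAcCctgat
Ly6i: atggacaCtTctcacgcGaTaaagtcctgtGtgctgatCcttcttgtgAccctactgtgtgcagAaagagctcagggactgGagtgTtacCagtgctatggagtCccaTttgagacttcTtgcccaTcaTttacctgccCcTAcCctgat
Of all 50-base stretches in the annotated protein-coding transcripts, 32.8% of those of Ly6c1, 31.2% of Ly6c2, 19.0% of Ly6a and 4.76% of Ly6i also occur in another gene, and none of those of Ly6d and Ly6e do. Stretches found only in other transcripts of these genes were left out. Ly6k overlaps Gm17189, with which it shares 32.7% of its stretches. How the authors counted reads that match several genes, and whether strand was used, is stated by none of the sources at hand, so values of Ly6c1 and Ly6c2 cannot be separated with certainty, nor those of Ly6k from Gm17189, and those of Ly6a and Ly6i carry a smaller doubt of the same kind.

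**Figure D1:**
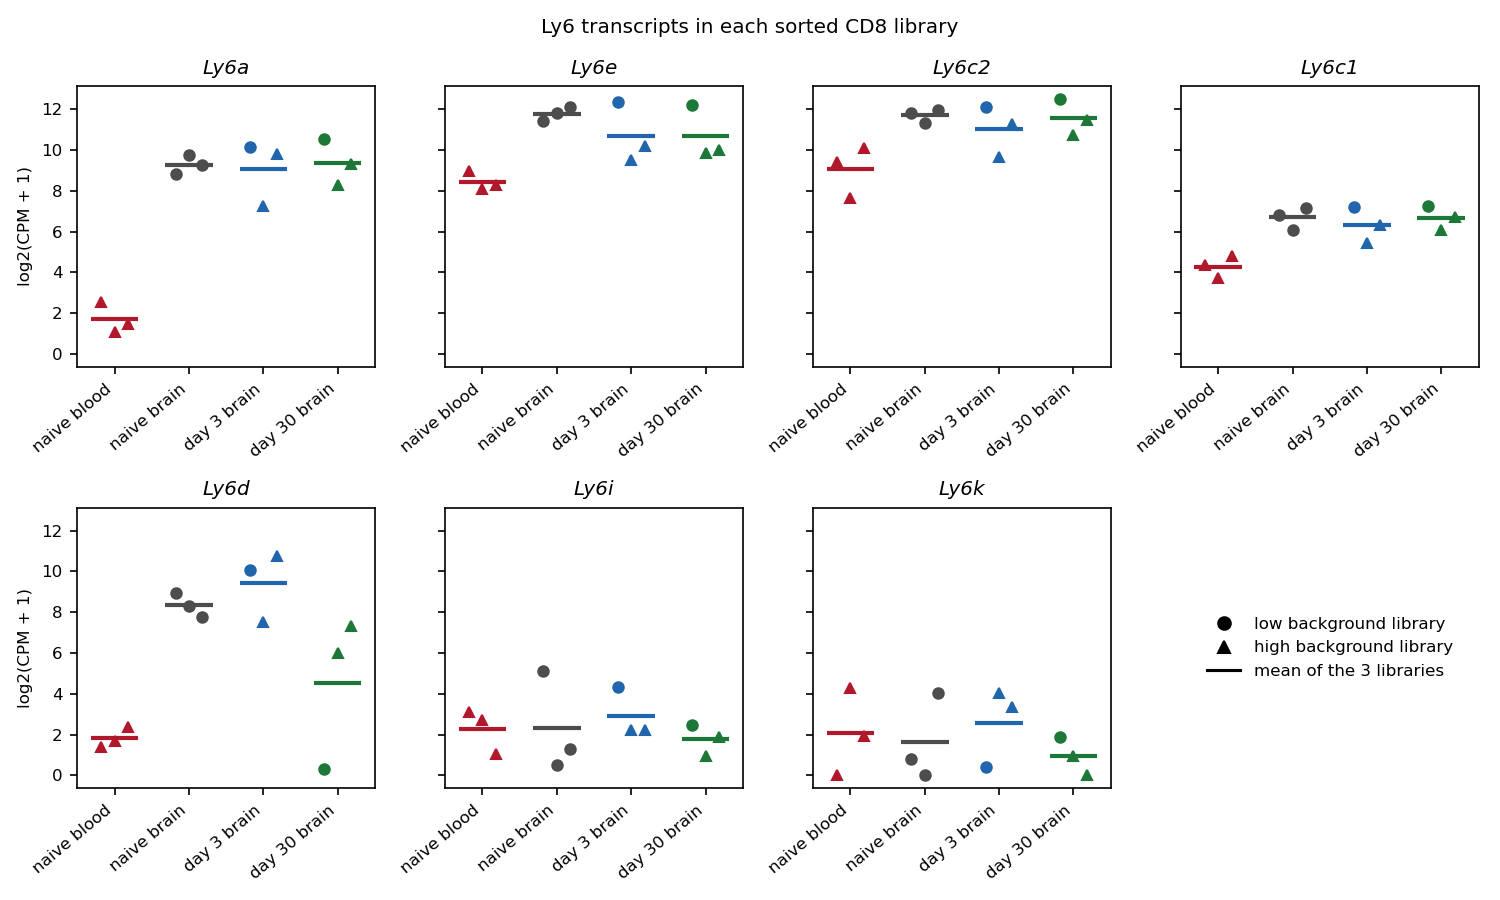
Deposited values of the 7 Ly6 genes on the log2(CPM + 1) scale, 1 point per library, with circles for libraries of low and triangles for libraries of high background and a line at the mean of the 3 libraries. Ly6a lay between 1.10 and 4.87 CPM in blood and between 151 and 1496 CPM in brain, and Ly6d was spread widest at day 30.

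Values are read counts that the authors normalized to a scaled library size (CPM), and differences are in log2(CPM + 1) with the standard error (SE) of a limma fit over all 12 libraries; a gene is called where its Benjamini-Hochberg adjusted p over all tested genes was under 0.05. Libraries held 1104490 to 21014171 reads. They fell into 5 of low background, where olfactory, vomeronasal and taste receptor genes took 165 to 884 unscaled CPM, and 7 of high background, where they took 2016 to 7884. The 3 naive brain libraries and replicate 1 of each stroke group were of low background, and the 3 blood libraries were of high background, so tissue and background cannot be told apart between naive brain and blood. Where background was a term in the fit, it was estimated from the stroke groups alone, which hold both kinds, and carried over to naive brain and blood. Beside the labelled cell type, 14 T cell markers were read, and all 14 had reads in every library. Their sum took 0.409 to 0.555% of reads in blood, 0.703 to 0.909% in naive brain, 0.0850 to 0.268% at day 3 and 0.531 to 1.32% at day 30. Having reads does not check the label, since 12 microglia markers also all had reads in every library. The microglia markers took 0.0178 to 0.0433% of reads in blood and 0.907 to 2.03% in naive brain. In sorted bulk libraries, fewer cells of a type and less RNA per cell cannot be told apart.

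Ly6a, the gene of Sca-1, was near the limit of detection in blood and abundant in every brain library. It stood at 4.87, 1.10 and 1.76 CPM in the 3 blood libraries, from 9, 2 and 5 reads. In naive brain it stood at 451, 865 and 614 CPM, at day 3 at 1130, 151 and 902 CPM, and at day 30 at 1496, 312 and 635 CPM. Every brain library lay above every blood library, and the 3 brain groups overlapped. The lowest brain value belonged to replicate 2 of day 3 and the highest to replicate 1 of day 30. In order of their means, day 30 (814 ± 612 CPM, SD, n = 3), day 3 (728 ± 513) and naive brain (643 ± 208) differed by less than their SD, and blood (2.57 ± 2.01) lay below them. Against blood, the log2 difference was 7.59 ± 0.75 (SE) for naive brain, 7.37 ± 0.75 for day 3 and 7.69 ± 0.75 for day 30; these 3 differences share the blood libraries. Against naive brain, Ly6a differed by -0.21 ± 0.75 at day 3 and 0.10 ± 0.75 at day 30, and the sign of both turned with the scaling (0.77 and 0.79 on unscaled CPM, -1.27 and -0.74 after median centring). Among high background libraries alone, Ly6a was above blood by 6.84 ± 0.78 at day 3 and 7.11 ± 0.78 at day 30.

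Ly6e, which encodes an interferon-induced surface protein known to restrict coronavirus entry and to mark immature thymocytes, was expressed in all groups. It stood at 505, 268 and 306 CPM in blood and at 2748, 3543 and 4475 CPM in naive brain. It stood at 5205, 727 and 1171 CPM at day 3, and at 4640, 927 and 1023 CPM at day 30. Every brain library was above every blood library. Among the brain libraries, the 5 of low background (2748 to 5205 CPM) lay above the 4 of high background (727 to 1171 CPM), also on unscaled CPM (2044 to 3223 against 1163 to 1725); whether background set the level of Ly6e was not tested. In order of their means came naive brain (3589 ± 864 CPM, SD, n = 3), day 3 (2368 ± 2467), day 30 (2197 ± 2116) and blood (360 ± 127), and the first 3 overlapped. Ly6e was above blood by 3.34 ± 0.67 in naive brain, 2.25 ± 0.67 at day 3 and 2.24 ± 0.67 at day 30, and only the first was called. With background as a term in the fit, the difference between naive brain and blood was 0.97 ± 0.52 and the call was lost. Without replicate 2 of day 3, the difference between day 3 and blood was 2.83 ± 0.60 and was called. Without replicate 1 of day 3, Ly6e was called lower at day 3 than in naive brain, by -1.93 ± 0.54, against -1.10 ± 0.67 with all libraries.

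Ly6c2 was the most abundant of the 7 genes per base of transcript in every group, at the exon union and at the longest coding transcript alike, apart from day 3 with the exon union, where Ly6d had the higher mean. It stood at 669, 202 and 1104 CPM in blood, at 3578, 2564 and 4009 CPM in naive brain, at 4457, 800 and 2497 CPM at day 3 and at 5827, 1711 and 2835 CPM at day 30. Replicate 2 of day 3 lay within the range of blood on the deposited scale, and the other 8 brain libraries lay above it. On unscaled CPM, all brain libraries lay above all blood libraries. In order of their means came day 30 (3458 ± 2128 CPM, SD, n = 3), naive brain (3384 ± 742), day 3 (2585 ± 1830) and blood (658 ± 451), with the 3 brain groups overlapping. The difference from blood was 2.65 ± 0.66 in naive brain, 1.96 ± 0.66 at day 3 and 2.52 ± 0.66 at day 30, of which the first and the third were called. The call for naive brain held in 14 of 21 alternatives. Among those that lost it were leaving out replicate 3 of naive brain (2.51 ± 0.81) or replicate 2 of blood (1.95 ± 0.75), background as a term (1.12 ± 0.66), quantile normalization (1.06 ± 0.32) and edgeR. The call at day 30 held in 6 of 22 alternatives. It was lost without blood replicate 1 (2.69 ± 0.80) or 2 (1.82 ± 0.75) and without day 30 replicate 1 (2.05 ± 0.70) or 3 (2.57 ± 0.79). It was also lost with background as a term (2.01 ± 0.48), among high background libraries alone (2.05 ± 0.69) and with median centring (2.94 ± 0.95). Without replicate 2 of day 3, Ly6c2 was called above blood at day 3, by 2.65 ± 0.56.

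Ly6c1, the copy known for its expression in vessel endothelium, followed Ly6c2 at a much lower level. It stood at 19.5, 12.1 and 26.8 CPM in blood, 113, 66.5 and 143 CPM in naive brain, 144, 42.3 and 77.6 CPM at day 3, and 153, 65.7 and 103 CPM at day 30. Every brain library was above every blood library. Reads of Ly6c1 per 100 reads of Ly6c2 ran from 2.42 to 5.98 in blood, 2.60 to 3.56 in naive brain, 3.11 to 5.29 at day 3 and 2.62 to 3.84 at day 30, so the ratio of the pair overlapped between all groups. The difference of Ly6c1 from blood was 2.41 ± 0.79 in naive brain, 2.02 ± 0.79 at day 3 and 2.39 ± 0.79 at day 30. The first was called, and the call held in 6 of 21 alternatives. It was lost with any 1 of the 6 libraries left out (2.12 to 2.71), and with smaller differences on unscaled CPM (1.22 ± 0.71), with background as a term (1.30 ± 0.95) and with quantile normalization (1.58 ± 0.69). The sum of 12 endothelial markers, such as Pecam1 and Cldn5, took 235 to 405 unscaled CPM in blood, 21.3 to 130 in naive brain, 72.4 to 560 at day 3 and 56.0 to 222 at day 30. The sum moved with the background: the 5 low background libraries had 21.3 to 130 and the 7 of high background 182 to 560. Egfl7 had no read in blood. Of the 12, limma called Kdr between naive brain and blood, with a difference of -3.37 ± 1.02, edgeR called none and DESeq2 called 2. Limma called 0.975% of all tested genes lower in that comparison. The part of endothelial RNA in the Ly6c1 values was not tested.

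The promoters of the Ly6c pair are shown because the 2 genes followed each other closely: after centring on their means, their log2 values differed by a root mean square of 0.39 over the 12 libraries, the smallest of any pair among the 7. The values of the pair cannot be separated with certainty, and the part of shared reads in this likeness was not tested. Of the 7 genes, 2 (Ly6c1 and Ly6c2) had a promoter entry in the RefSeq sequences used (GRCm38.p6), with 2 start sites each. The upstream parts were aligned for each pair of start sites, and the pair with the most matching bases is given. That alignment spanned 228 columns with 71.9% identity, 52 mismatches and 12 gap columns. The other pairs spanned 110 to 194 columns with 70.1 to 75.7% identity. The aligned stretch lay 1 to 219 bases before the start in Ly6c1 and 26 to 250 in Ly6c2. It is printed for Ly6c1 (chr15:75048838-75049056) and Ly6c2 (chr15:75111997-75112221), both read from the minus strand, with capitals at bases that mismatch or have no partner.
Ly6c1: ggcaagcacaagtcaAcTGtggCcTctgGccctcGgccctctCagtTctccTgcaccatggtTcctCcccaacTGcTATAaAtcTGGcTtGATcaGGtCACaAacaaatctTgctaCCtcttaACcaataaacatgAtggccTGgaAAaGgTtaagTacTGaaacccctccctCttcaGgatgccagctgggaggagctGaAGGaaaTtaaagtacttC
Ly6c2: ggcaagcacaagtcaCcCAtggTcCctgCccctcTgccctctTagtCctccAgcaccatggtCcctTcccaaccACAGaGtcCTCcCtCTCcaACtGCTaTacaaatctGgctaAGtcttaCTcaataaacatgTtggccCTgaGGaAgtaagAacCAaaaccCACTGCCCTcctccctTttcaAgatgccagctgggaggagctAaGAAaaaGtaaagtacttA
The core of the interferon-stimulated response element, searched on both strands as TTTC, any 2 bases and again TTTC, occurred in the 250 bases before the start in none of the 4 entries of the pair and in 2.98% of 32851 promoter entries. The gamma-activated site, searched as TTCNNNGAA, which reads the same on both strands, also occurred in none of the 4 and in 7.02% of all entries. This says only that these letters are not in these windows.

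Ly6d, known from lymphoid progenitors committed to the B lineage and from plasmacytoid dendritic cells, varied most. It stood at 1.62, 2.19 and 4.22 CPM in blood, from 3, 4 and 12 reads, and at 495, 316 and 218 CPM in naive brain. At day 3 it stood at 1061, 184 and 1717 CPM. At day 30 it stood at 0.227 CPM (1 read of 6844661), 63.4 CPM (138 reads) and 161 CPM (357 reads). Replicate 1 of day 30 lay below every blood library, while the other 2 day 30 libraries lay above blood and below the other brain groups. In order of their means came day 3 (987 ± 769 CPM, SD, n = 3), naive brain (343 ± 140), day 30 (74.9 ± 81.1) and blood (2.68 ± 1.37); the first pair overlapped, as did the last. Ly6d was above blood by 6.53 ± 0.97 in naive brain and 7.63 ± 0.97 at day 3, both called, and by 2.73 ± 0.97 at day 30, not called. It was lower at day 30 than at day 3 by -4.89 ± 0.97, which was called, and lower than in naive brain by -3.80 ± 0.97, which was not. On unscaled CPM the values of day 30 and naive brain overlapped.

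The fall of Ly6d from day 3 to day 30 rests in part on 1 library. Without replicate 1 of day 30 the difference was -2.77 ± 0.85. Among high background libraries alone it was -2.46 ± 0.93, in a fit of all 7 of them, blood included. Neither was called. The call was also lost without replicate 1 (-4.59 ± 1.26) or replicate 3 (-4.24 ± 1.10) of day 3. Without replicate 1 of day 30, Ly6d was above blood at day 30 by 4.86 ± 0.85, which was called. Without replicate 3 of day 30, it was called below naive brain, by -5.19 ± 1.01.

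Ly6i and Ly6k were sparse. Ly6i, a relative of Ly6a with little described function, stood at 7.57, 5.49 and 1.06 CPM in blood, 33.7, 0.431 and 1.49 CPM in naive brain, 19.0, 3.64 and 3.75 CPM at day 3 and 4.53, 0.918 and 2.71 CPM at day 30. Its highest values were in replicate 1 of naive brain (87 reads) and replicate 1 of day 3 (60 reads), and all groups overlapped on the deposited scale. On unscaled CPM, all day 30 values of Ly6i lay below those of day 3. Ly6k, known from male germ cells, had no read in 3 libraries and 154 reads at most, in naive brain replicate 3. Its CPM in blood was 0, 18.7 and 2.82, and in naive brain it was 0.775, 0 and 15.3. Day 3 libraries had 0.317, 15.5 and 9.10 CPM, and day 30 libraries 2.72, 0.918 and 0 CPM. Neither gene was called in any of the 6 comparisons, with differences between -1.65 and 0.97 and SE of 1.14 to 1.17.

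**Figure D2:**
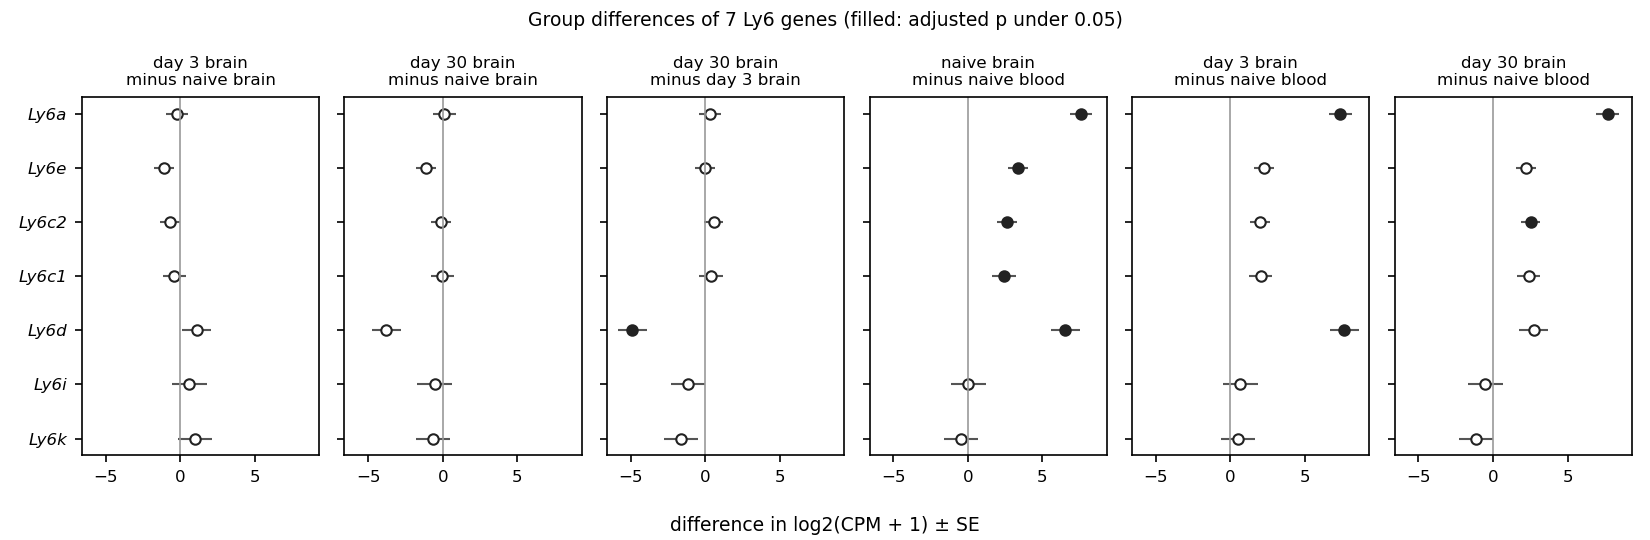
Differences of the 7 genes in log2(CPM + 1) for the 6 group comparisons, with bars of 1 SE and filled points where the adjusted p was under 0.05. The filled points are mainly in the comparisons with blood, and the only one between brain groups is Ly6d, with a difference of -4.89 between day 30 and day 3.

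Counted over the family, 5 of the 7 genes were called higher in naive brain than in blood, 2 at day 3 (Ly6a and Ly6d) and 2 at day 30 (Ly6a and Ly6c2), and none lower. Of all 22352 tested genes, 6.61%, 1.1% and 0.676% were called higher in these 3 comparisons. In 5 of the 7 genes all naive brain libraries lay above all blood libraries, as did 4 of 7 at day 3 and 4 of 7 at day 30, beside 15.6%, 7.54% and 7.35% of all tested genes. The median difference from blood of the 7 genes was 2.65 in naive brain, 2.02 at day 3 and 2.39 at day 30, beside -0.37, 0.03 and -0.05 for all tested genes. All libraries of the first group lay below all blood libraries for none of the 7, beside 15.2%, 4.52% and 7.38% of all tested genes, and 0.975%, 0.085% and 0.0358% of them were called lower. Between day 3 and naive brain, none of the 7 was called in either direction, beside 0.152% of all tested genes called higher and 0.564% lower, and all 7 overlapped, beside 8.76% of genes with all libraries above and 8.5% with all below. Between day 30 and naive brain none was called either, beside 0.0% higher and 0.224% lower, and for Ly6d all day 30 libraries lay below naive brain, beside 6.03% of all genes below and 7.22% above. By edgeR and DESeq2 on recovered reads, none of the 7 was called in either comparison. From day 3 to day 30, 1 of 7 (Ly6d) was called lower and lay below in all libraries, beside 0.139% of all tested genes called lower, 0.116% called higher, 5.65% with all libraries below and 4.0% with all above. The median over all tested genes depended on the scaling: for naive brain against blood it was -0.37 on the deposited scale, -1.05 on unscaled CPM and 0.90 after median centring. On unscaled CPM, 4 of the 7 were called above blood at day 3 and 4 at day 30. The genes were chosen with these differences known, so nothing is read from these counts.

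**Figure D3:**
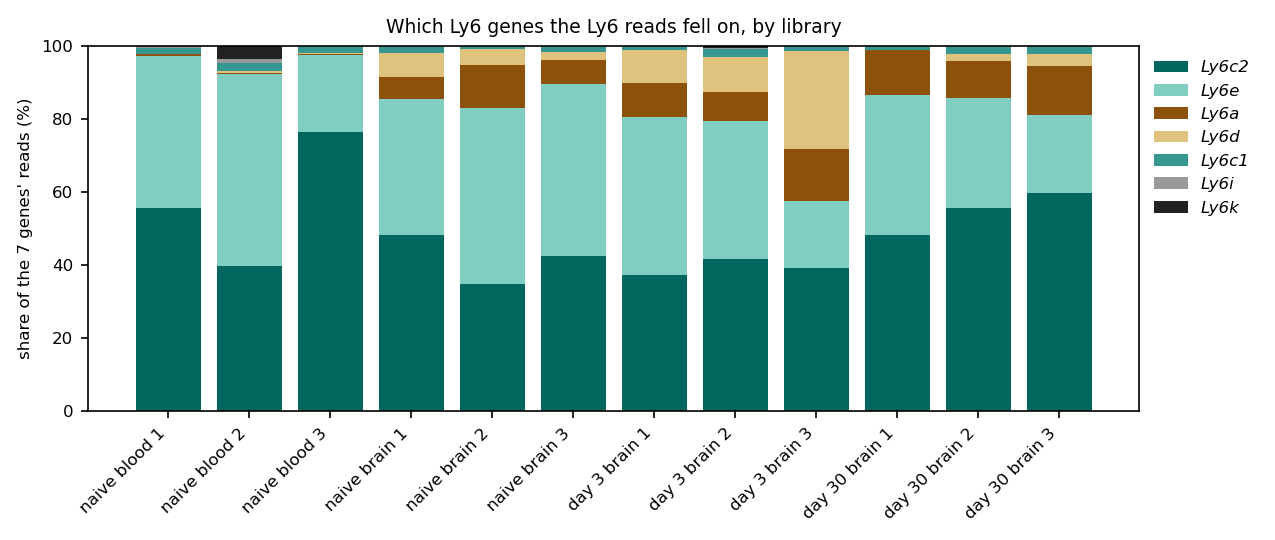
Share of the 7 genes' reads that fell on each gene, in percent, 1 bar per library. Ly6c2 and Ly6e together took most reads in every library, and Ly6a took 6.08% or more in brain libraries and 0.403% or less in blood.

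The 7 genes together took 0.0840 to 0.192% of all reads in blood, 0.454 to 0.552% in naive brain, 0.365 to 0.939% at day 3 and 0.389 to 0.782% at day 30. Within that sum, Ly6a took 0.122 to 0.403% in blood, 6.08 to 11.8% in naive brain, 7.83 to 14.1% at day 3 and 10.1 to 13.3% at day 30. Ly6d took 26.9% of the family's reads in replicate 3 of day 3, its highest share, and 0.00187% in replicate 1 of day 30. Per kilobase of the longest coding transcript, the levels in naive brain were 2507 unscaled CPM for Ly6c2, 935 for Ly6e, 408 for Ly6a, 300.0 for Ly6d and 76.6 for Ly6c1, and per kilobase of all annotated exons 752, 564, 324, 300.0 and 38.6. The order of the 5 was the same with both lengths, while the gap between Ly6c2 and the others depended on them.

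Because a sort for CD8 T cells can be read against the CD8 transcript itself, Ly6 reads were set beside Cd8a reads of the same library. In blood, Ly6a had 2.83, 0.509 and 0.743 reads per 100 Cd8a reads. In naive brain it had 56.6, 55.1 and 45.2, and at day 3 it had 221, 285 and 459. Day 30 libraries had 53.3, 60.2 and 82.9. Day 3 lay above all other libraries by this ratio, and naive brain and day 30 overlapped. For Ly6c2 the ratio was 873 to 1516 at day 3, 163 to 449 in naive brain, 207 to 370 at day 30 and 93.6 to 466 in blood, so apart from day 3 the groups overlapped. For Ly6e it was 596 to 1378 at day 3, 226 to 345 in naive brain, 134 to 179 at day 30 and 124 to 294 in blood. For Ly6d it was 208 to 874 at day 3, 16.0 to 62.1 in naive brain and 0.00807 to 21.0 at day 30, while blood libraries had 0.943 to 1.78. The denominator moved at day 3: Cd8a was lower than in naive brain by -2.76 ± 0.70 (limma, adjusted p = 0.0374), while Ly6a differed by -0.21 ± 0.75. Set against Ly6c2 in place of Cd8a, Ly6a had 0.159 to 0.727 reads per 100 in blood and 12.6 to 36.1 in brain, and the 3 brain groups overlapped.

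**Figure D4:**
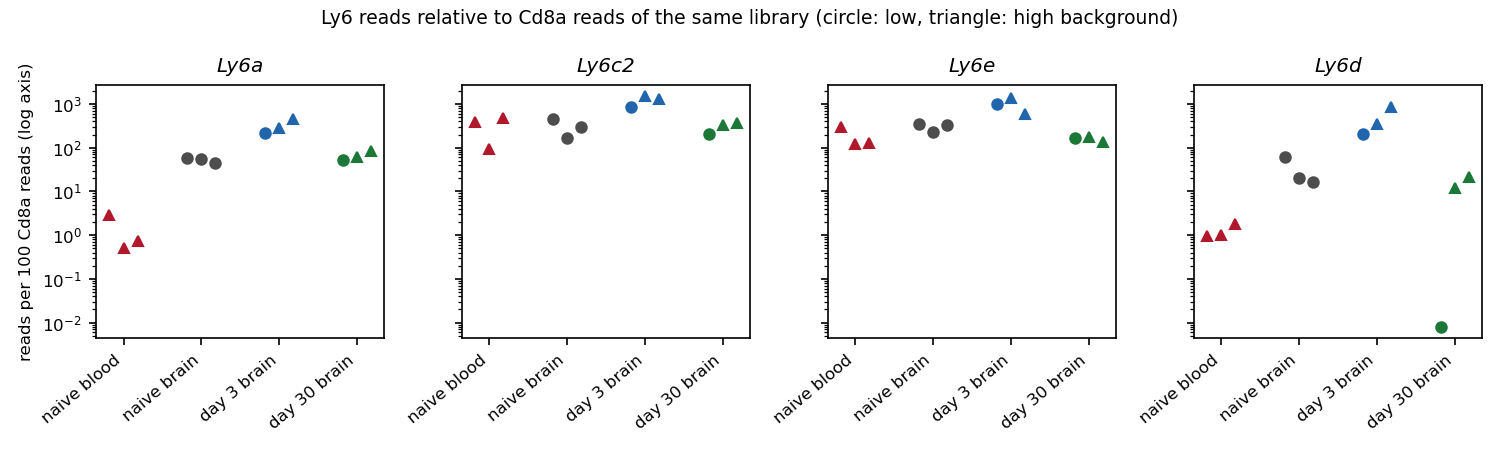
Reads of Ly6a, Ly6c2, Ly6e and Ly6d per 100 Cd8a reads of the same library, on a log axis, 1 point per library, with circles for low and triangles for high background. The 3 day 3 libraries are the highest in all 4 panels, and Ly6d in replicate 1 of day 30 is the lowest point, at 0.00807.

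Levels of T cell markers and of markers of other cell types also differed between the groups. At day 3, 12 of 14 T cell markers were called lower than in naive brain, beside 0.564% of all tested genes. Among them were Cd2, an adhesion receptor, at -4.81 ± 0.81, Lck, the kinase of the T cell receptor, at -4.71 ± 0.75, Lat at -3.95 ± 0.74 and Cd3e at -3.95 ± 0.81. The median over the list was -2.94, beside 0.50 for all genes. With 1 library left out, 3 were called without naive brain replicate 2 or without day 3 replicate 2, 4 without day 3 replicate 3, 5 without naive brain replicate 3, 6 without naive brain replicate 1 and 13 without day 3 replicate 1. None was called with median centring, with background as a term or by edgeR on recovered reads, and 7 were called by DESeq2. Microglia markers, such as C1qb and P2ry12, summed to 178 to 433 unscaled CPM in blood, 9074 to 20252 in naive brain, 2580 to 14091 at day 3 and 1697 to 5699 at day 30. Of 12 microglia markers, 12, 9 and 8 were called higher than in blood in naive brain, at day 3 and at day 30. Of all tested genes, 6.61%, 1.1% and 0.676% were called higher in these comparisons, also for the counts of other cell types below. Monocyte markers summed to 518 to 598 unscaled CPM in blood, 2859 to 3266 in naive brain, 2132 to 8548 at day 3 and 1038 to 1503 at day 30, with 6, 6 and 3 of 12 called higher than in blood; by edgeR on recovered reads the last count was 0. The monocyte sum did not describe each marker. On the deposited scale, Csf1r alone stood at 2471, 2003 and 4142 CPM in naive brain, against 5.41, 115 and 47.9 in blood. Chil3 went the other way, with 2.71, 0.431 and 0.695 CPM in naive brain against 37.3, 2.74 and 29.9 in blood. Fn1 overlapped, with 19.4, 2.80 and 1.29 CPM against 16.2, 53.2 and 52.1. Ly6c2 and Ly6a are also expressed by monocytes, and Ly6e by most leukocytes. Natural killer cell markers summed to 171 to 578 unscaled CPM in blood and 756 to 4754 in brain, with 3, 2 and 3 of 8 called higher than in blood, among them Tyrobp and Fcgr3, which microglia and monocytes also express. Neutrophil markers summed to 37.5 to 198 unscaled CPM over all libraries, and 1 of 11, Csf3r, was called higher in naive brain than in blood (3.66 ± 0.91). Which cells carried the Ly6 transcripts was not tested.

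Ly6d was set beside 8 markers of plasmacytoid dendritic cells, the type I interferon-producing dendritic cells, among them Siglech, Cox6a2, Spib and Klk1. Their sum was 135, 266 and 131 unscaled CPM in blood and 1326, 1686 and 1057 in naive brain. At day 3 it was 1603, 4257 and 6097, and at day 30 it was 397, 982 and 815. Replicate 3 of day 3 was highest and replicate 1 of day 30 the lowest brain library by both this sum and Ly6d. In other libraries the order differed. Replicate 2 of day 3 had the next highest sum, 4257, with Ly6d at 184 CPM on the deposited scale, below all naive brain libraries. On unscaled CPM, the scale of the sum, its Ly6d was the lowest of day 3 and within the range of naive brain (per kilobase, 469 against 140 to 495). Replicate 1 of day 30 had a sum above all blood libraries with Ly6d below them. Against blood, 7 of the 8 were called higher at day 3 (Cox6a2 by 6.86 ± 0.85, Siglech by 6.71 ± 0.68, Klk1 by 5.60 ± 1.17 and Spib by 5.08 ± 1.20), 4 in naive brain (Siglech by 7.21 ± 0.68) and 2 at day 30 (Siglech by 4.94 ± 0.68). Of all tested genes, 1.1%, 6.61% and 0.676% were called higher in these comparisons. Siglech is also a gene of microglia, whose markers were above blood in the same comparisons. From day 3 to day 30 limma called none of the 8, with 6 at an unadjusted p under 0.05, edgeR called none and DESeq2 called 3, with a median of -2.46 beside -0.15 for all genes. Between day 3 and naive brain limma, edgeR and DESeq2 called none, with 4 at an unadjusted p under 0.05. In naive blood, where Ly6d had 19 reads in all, B and plasma cell markers summed to 112 to 128 unscaled CPM; in brain they summed to 17.0 to 270. Of the 9 tested, limma and edgeR called none in any comparison, with at most 3 at an unadjusted p under 0.05, and DESeq2 called 2, between naive brain and blood. The part of these cells in the Ly6d values was not tested.

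**Figure D5:**
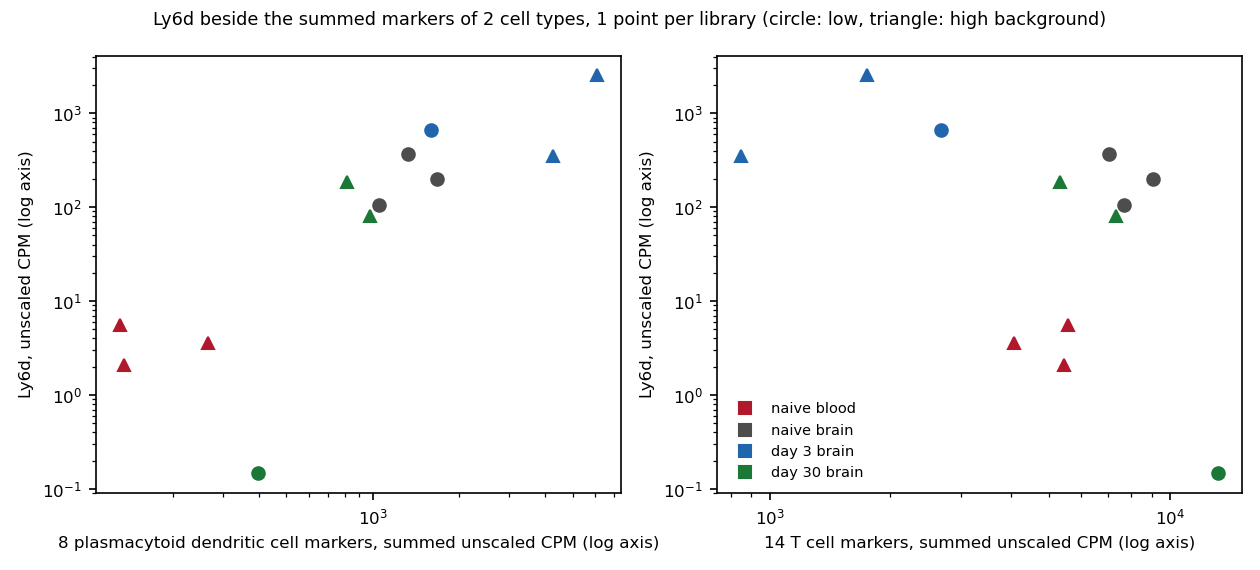
Ly6d in unscaled CPM against the summed unscaled CPM of 8 plasmacytoid dendritic cell markers (left) and 14 T cell markers (right), both on log axes, 1 point per library, with circles for low and triangles for high background. Replicates 2 and 3 of day 3 have the most of the dendritic cell markers, all 3 day 3 libraries have the least of the T cell markers, and Ly6d in day 30 replicate 1 lies below all others.

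Genes of the pathways around the Ly6 family were taken from lists. Of 36 other members of the Ly6 and urokinase receptor superfamily, 27 were in the table and 26 were tested, and limma and edgeR called none in any of the 6 comparisons. At an unadjusted p under 0.05 there were 0 to 3 in a comparison, and DESeq2 called 3 between naive brain and blood and none elsewhere. By mean over the 12 libraries, 3 of them reached 10 CPM: Plaur (48.7 CPM), the urokinase receptor, Lynx1 (19.8 CPM), a modulator of nicotinic receptors, and Lypd6b (13.2 CPM). Plaur had its highest value, 244 CPM, in naive brain replicate 2, and the other 11 libraries lay between 4.59 and 87.2 CPM. Lynx1 reached 105 CPM in blood replicate 2 and lay between 0 and 42.3 CPM in the other 11. Together the 27 took 0.00248 to 0.0386% of reads, and Psca and Lypd2 had no read in blood.

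Of 28 genes that build the GPI anchor and attach it, 3 were called higher in naive brain than in blood and 1 lower. Of all tested genes, 6.61% were called higher and 0.975% lower. The counts are small, and nothing is read from them about the list. Called higher were Gpaa1 (5.32 ± 1.07) and Pigu (2.68 ± 0.84), subunits of the transamidase that attaches the anchor. The other was Dpm2 (2.77 ± 0.89), a subunit of the enzyme that makes the anchor's mannose donor. Pgap1, which remodels the anchor, was called lower (-3.03 ± 0.94). Pigs, another transamidase subunit, was called higher at day 30 than in blood (3.32 ± 0.87), beside 0.676% of all tested genes. Limma, edgeR and DESeq2 called none of the 28 in the other 4 comparisons, with 1 to 5 at an unadjusted p under 0.05. For naive brain against blood, edgeR called 2 and DESeq2 3, and at day 30 against blood edgeR called none and DESeq2 1. The median difference of the list between naive brain and blood was 0.77, beside -0.37 for all tested genes.

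Of 20 genes induced by type I interferon, 4 were called higher in naive brain than in blood, beside 6.61% of all tested genes. These were the transcription factor Irf7 (3.36 ± 0.94), Ifit3 (3.16 ± 0.90), Xaf1 (3.15 ± 0.83) and Isg15, a ubiquitin-like protein. Isg15 had no read in any blood library and 2.71, 20.4 and 80.5 CPM in naive brain. Limma called none at day 3 or day 30, with 7 at an unadjusted p under 0.05 against blood at each time. Against blood, edgeR called 1 at day 3 and 2 at day 30, and DESeq2 called 2 at each. Against naive brain, limma had 4 at an unadjusted p under 0.05 at day 3 and 1 at day 30, edgeR called none, and DESeq2 called 1 at day 3. The list's median difference from blood was 1.73 in naive brain, 1.51 at day 3 and 1.75 at day 30. Of 20 genes induced by interferon gamma, 5 were called higher in naive brain than in blood, beside 6.61% of all tested genes. The largest differences were of the feedback inhibitor Socs1 (5.93 ± 1.01) and the transcription factor Irf1 (3.99 ± 0.84), with the immunoproteasome subunits Psmb9 (3.49 ± 0.78) and Psmb8 (3.30 ± 0.74). Against blood, limma called 1 of the 20 at day 3 and 2 at day 30. Cxcl10, a chemokine that draws T cells, was called above blood at both times (5.17 ± 1.06 and 4.78 ± 1.06), and the other gene is not named here. Of all tested genes, 1.1% were called higher and 0.085% lower at day 3 than in blood. At day 30 these shares were 0.676% and 0.0358%. Between day 3 and naive brain limma called none of this list, with 12 of 20 at an unadjusted p under 0.05, edgeR called none and DESeq2 called 2. Between day 30 and day 3 limma also called none, with 6 at an unadjusted p under 0.05, edgeR called none and DESeq2 called 1. Between day 30 and naive brain, all 3 tools called none, with 1 at an unadjusted p under 0.05. The medians of the interferon gamma list were 1.65, 0.48 and 1.65 above blood in naive brain, at day 3 and at day 30. Of 20 genes of memory and effector CD8 T cells, 7 were called higher in naive brain than in blood, beside 6.61% of all tested genes. They were led by Cx3cr1 (7.15 ± 0.82) and Cxcr3 (6.56 ± 0.83), chemokine receptors, and Ifng (6.51 ± 0.94). Cx3cr1 is also a main gene of microglia, all 12 markers of which were called higher in the same comparison. It stood at 764, 1693 and 3492 CPM in naive brain, with 960, 107 and 64.8 CPM at day 3. At day 3, 4 of the 20 were called lower than in naive brain, beside 0.564% of all tested genes: Ifng (-4.12 ± 0.94), Bcl2 (-3.21 ± 0.69), Il2rb (-3.19 ± 0.80) and Cx3cr1 (-3.12 ± 0.82). By edgeR on recovered reads none of these 4 was called. At day 30, Cx3cr1 was called lower than in naive brain (-3.72 ± 0.82) by limma, not by edgeR, with 4 of 12 microglia markers also called lower. Cxcr3 (5.34 ± 0.83), Ifng (4.99 ± 0.94), Cx3cr1 (3.42 ± 0.82) and Id2 (3.20 ± 0.72) were called higher at day 30 than in blood. Of all tested genes, 0.224% were called lower at day 30 than in naive brain and 0.676% higher than in blood.

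The genes whose log2 values, centred on their means, were most like those of each Ly6 gene were found among 10779 genes with a mean of at least 10 CPM, by the root mean square difference over the 12 libraries. For Ly6a these were Siglech (1.24), C1qb (1.27), P2ry12 (1.39), Tyrobp (1.40) and Ly86 (1.42), beside a median of 3.32 over all candidates. For Ly6c2 they were Sdf2 (0.41), Sdhaf2 (0.43), Tram1 (0.46), Arl6ip1 (0.47) and Tmed5 (0.48), beside a median of 1.52. For Ly6e they were P4hb (0.25), Arf5 (0.33), Sh3bgrl3 (0.34), Lsp1 (0.40) and Tmem14c (0.40), also beside 1.52. For Ly6d, added after its values were seen, they were the class II genes H2-Aa (1.31) and H2-Eb1 (1.50), Rnase6 (1.55), Cox6a2 (1.66) and Clec12a (1.67), beside a median of 3.61. These distances describe the 12 libraries, which share tissue, background and depth.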

How the data were processed

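RNA of sorted CD8 T cells was amplified with the SMART-Seq v4 kit, which carries no molecular identifiers, and sequenced, per the labels. Per the submitters' processing notes, FastQC 0.11.2, STAR 2.5.3a, featureCounts of Subread and edgeR were used with mm10. The sources used here name no annotation, strand setting or filter. The deposited table holds 12 columns that the authors normalized as CPM; they sum to between 526580 and 2086823, so they are treated as a signal scaled by the authors and not as plain CPM. Dividing by the value of 1 read gave whole reads for 100% of values (within 1e-06). In naive brain replicate 3 that value is 0.0993 CPM, near a step that rounding could give, so count tests were also run without it, although its values are whole within the same tolerance. Unscaled CPM are recovered reads divided by their library total.

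Main tests were limma 3.58.1 (R 4.3.3) on log2(CPM + 1) of all 12 libraries, with genes of at least 1 CPM in at least 3 libraries (22352 tested, 1585 not) and Benjamini-Hochberg adjustment with a threshold of 0.05. Alternatives included edgeR 4.0.16 and DESeq2 1.42.0 on recovered reads. Fits were tested on simulated data. The design assumed plain CPM, and the tests were kept. Library quality weights were estimated with a warning that their tolerance was not reached.

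The members, marker lists and pathway lists were chosen with earlier results of these data known. All members are named. From each list, up to 4 called genes of largest difference are named, or up to 2 of highest mean, and other Ly6 family genes from a mean of 10 CPM. Nearest genes of Ly6d, the Plaur and Lynx1 maxima, and genes with no read in blood were added after seeing values. Background was split by reads on 1490 receptor genes. The main fits were unpaired, and the replicate number was a block only in 1 alternative, run for all 6 comparisons. The labels give no pairing. Same-numbered libraries of day 3 and day 30 deviated together (r across genes 0.530, 0.284 and 0.165). Replicates 2 and 3 of both groups are of high background, and differently numbered libraries among them had r of 0.214 and 0.180. Replicate 1 and low background therefore cannot be told apart. A floor of 3 reads equals 0.298 to 1.65 CPM and covers counting error only.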

Additional observations from a re-analysis of the deposited data

Results flagged for a closer look

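From day 3 to day 30, the differences from naive brain changed in the limma fit for 5 of the genes described. Of all tested genes, 0.116% were called higher and 0.139% lower at day 30 than at day 3. Ly6d changed by -4.89 ± 0.97 (SE, log2), given as a description since the gene was chosen for its pattern, with every day 30 library below every day 3 library. The survival gene Bcl2 changed by 3.44 ± 0.69 (adjusted p = 0.00442). Of the T cell markers, Cd2 changed by 3.48 ± 0.81 (limma, adjusted p = 0.0297), Lck by 3.35 ± 0.75 (limma, adjusted p = 0.0200) and Cd3g by 3.25 ± 0.70 (limma, adjusted p = 0.0133). By edgeR on recovered reads, none of the T cell markers and none of the memory and effector genes, Bcl2 among them, was called in this comparison, while DESeq2 called 3 of 14 and 1 of 20. Ly6d was not called by edgeR either. Both differences share the naive brain libraries, so each equals the difference between day 30 and day 3.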

How the results depend on the processing

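No difference of a Ly6 gene that was called changed sign under an alternative. Ly6a was called above blood in all alternatives run, with differences of 5.91 to 8.85 in naive brain, 6.20 to 8.29 at day 3 and 6.50 to 8.31 at day 30, and Ly6d in all run for naive brain (5.44 to 9.26) and day 3 (6.53 to 8.58). The fall of Ly6d from day 3 to day 30 kept its sign in 22 of 22 alternatives and was called in 10 (-6.29 to -2.46).

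Of the 7 genes, 5 were called between naive brain and blood. This was 4 on unscaled CPM, 3 with quantile normalization, 3 by edgeR with or without naive brain replicate 3, 3 by DESeq2 without it, 2 with background as a term, and 3 to 4 with 1 library left out. At day 3 against blood 2 were called, 4 on unscaled CPM, with quantile normalization or by DESeq2 with or without naive brain replicate 3, and 2 to 4 with 1 library left out. At day 30 against blood 2 were called, 4 on unscaled CPM, 3 with quantile normalization, and 1 with a pseudocount of 0.1 or 5, with no filter, a stricter filter of 10 CPM, median centring, the 2 groups alone, background as a term or DESeq2 without naive brain replicate 3, and 1 to 2 with 1 library left out. Between day 30 and day 3 the 1 call became 0 with a pseudocount of 0.1, no filter, the stricter filter, median centring, quality weights, high background libraries alone, edgeR with or without naive brain replicate 3, and DESeq2 without it, and was 0 to 1 with 1 library left out. Between day 3 and naive brain the 0 calls became 1 (Ly6e) with quality weights, and were 0 to 1 with 1 library left out. Between day 30 and naive brain the 0 calls became 1 (Ly6d) on unscaled CPM and were 0 to 1 with 1 library left out. The cause was not tested. Comparisons with naive brain could not be fitted among high background libraries, and Ly6i could not be fitted under the stricter filter.

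With the replicate number as a block, the counts were 0 between day 3 and naive brain, 1 (Ly6d) between day 30 and naive brain, 1 between day 30 and day 3, 4 between naive brain and blood, 2 at day 3 and 3 at day 30 against blood. The block fits held the 2 groups of a comparison alone, while the main fit held all 12 libraries. Over all genes, day 30 against day 3 had 538 calls with the block and 57 in the main fit, so these counts differ by more than the block. In both groups replicate 1 is of low and replicates 2 and 3 are of high background. Alternatives that leave out naive brain replicate 3 from the count tests were chosen after seeing the data. Ly6i, Ly6k and, in blood, Ly6a and Ly6d rest on few reads, which limits their differences.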
